A study of Rattus norvegicus with 6 samples.

Results

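The genes described here encode the pore-forming subunits of AMPA and kainate receptors, the fast excitatory ion channels gated by glutamate. They are the 4 AMPA subunit genes Gria1, Gria2, Gria3 and Gria4 and the 5 kainate subunit genes Grik1, Grik2, Grik3, Grik4 and Grik5, taken as a fixed family of 9 among the 24206 gene names on the array. All 9 were found by gene identifier or symbol, on 10 rows of the array, because Gria2 has 2 rows made for different transcript variants. The brighter row of Gria2 stands for the gene unless stated otherwise. The floor used here for a low level was an intensity of 50, or 5.64 in log2 units, and every member was above it on all 6 arrays.

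RNA came from tissue labelled as cerebellum of male Sprague-Dawley rats aged 8 to 10 weeks and weighing 240 to 260 g. After a fast of 12 h, the 9 rats of the alcohol group received by gavage 15 ml/kg of 40% alcohol, and the 9 control rats received an equal volume of saline, which other labels call brine. Tissue of 3 rats was ground together into each pool, so each group has 3 pools and each pool 1 single-colour NimbleGen array. The sources used here give neither the interval between gavage and tissue collection nor blood alcohol. All p-values below measure the spread between pools, and differences among the rats of a pool cannot be seen. Levels are log2 RMA intensities, where RMA is a method that corrects background, equalises arrays and summarises probes. A difference of 1 on this scale is a 2-fold change of intensity.

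AMPA receptors are tetramers that carry most fast excitatory transmission at the synapses of parallel and climbing fibres on Purkinje cells. An edited GluA2 subunit, encoded by Gria2, makes the channel nearly impermeable to calcium, so its share in the tetramer sets how much calcium enters. Kainate receptors are related tetramers with slower and smaller currents that also act presynaptically. GluK1 to GluK3, encoded by Grik1 to Grik3, form channels by themselves, whereas GluK4 and GluK5, encoded by Grik4 and Grik5, need one of them as a partner. In rodent cerebellum, granule cells are known for Gria2, Gria4, Grik2 and Grik5, Bergmann glia for Gria1 and Gria4, and Purkinje cells for Gria2, Gria3 and Grik1.

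The promoter sequences of 4 members are shown because they belong to pairs whose profiles over the pools, given below, were opposite in direction (Gria4 and Grik4) and most alike (Grik3 and Grik5). Each is the 250 bases before the annotated start, 5′ to 3′ on the gene's strand, from RefSeq on rat assembly GRCr8, whose promoter table matched 6 of the 9 members. Gria4 lies at chr8:10319882-10320131 on the minus strand and Grik4 at chr8:52102064-52102313 on the minus strand. Grik3 lies at chr5:143052192-143052441 on the plus strand and Grik5 at chr1:89794910-89795159 on the minus strand. Capitals mark matches, on either strand, to the motifs searched, which were the GC box GGGCGG, the E-boxes CAGATG and CAGCTG, and TATAAA.
Gria4: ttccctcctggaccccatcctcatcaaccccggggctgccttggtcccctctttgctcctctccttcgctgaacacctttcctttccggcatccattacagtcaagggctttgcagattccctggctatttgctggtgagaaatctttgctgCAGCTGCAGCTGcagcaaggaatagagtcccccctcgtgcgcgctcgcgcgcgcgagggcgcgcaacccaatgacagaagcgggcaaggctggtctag
Grik4: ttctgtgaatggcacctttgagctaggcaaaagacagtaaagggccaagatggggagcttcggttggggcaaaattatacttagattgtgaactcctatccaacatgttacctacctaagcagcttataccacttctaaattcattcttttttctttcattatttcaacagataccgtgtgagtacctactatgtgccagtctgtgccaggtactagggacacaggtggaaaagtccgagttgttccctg
Grik3: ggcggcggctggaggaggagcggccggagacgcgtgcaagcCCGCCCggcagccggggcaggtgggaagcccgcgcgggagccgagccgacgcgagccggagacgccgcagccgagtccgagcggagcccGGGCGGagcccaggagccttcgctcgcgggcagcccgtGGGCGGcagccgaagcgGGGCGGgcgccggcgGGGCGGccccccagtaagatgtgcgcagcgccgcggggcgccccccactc
Grik5: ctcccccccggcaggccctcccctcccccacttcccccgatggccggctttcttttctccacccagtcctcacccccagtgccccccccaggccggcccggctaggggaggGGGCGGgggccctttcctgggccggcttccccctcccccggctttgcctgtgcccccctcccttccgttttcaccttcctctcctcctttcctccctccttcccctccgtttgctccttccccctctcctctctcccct

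The Gria4 promoter held the E-box CAGCTG in 2 adjoining copies, which began 98 and 92 bases upstream of the start, and that motif occurred in 12.0% of the 33469 promoters of the same length. The Grik4 promoter held none of the 4 motifs. Grik3 had 5 GC boxes, beginning between 209 and 50 bases upstream, and Grik5 had 1 at 139 bases upstream, while 30.5% of all promoters held at least 1. CAGATG was present in 14.0% and TATAAA in 12.9% of all promoters and in none of the 4 shown. The share of G and C was 81.6% for Grik3, 70.8% for Grik5, 59.6% for Gria4 and 43.2% for Grik4, against a median of 51.2% over all promoters. These matches describe the sequence only, and the files hold no measurement of binding.

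Across the arrays, the median intensity was 213.2 to 232.8, the random-sequence probes lay at 23.3 to 25.5, and 66.9% to 68.8% of 26419 features reached the floor. In 2 pools, alcohol pool 2 and control pool 1, the markers of granule and Purkinje cells were low. The median over these lists was 8.21 and 8.88 there against 13.31 to 13.38 in the other 4. The Purkinje marker Pcp2 was at 5.27 and 5.65 there against 13.42 to 13.60 in the other 4 pools, and the granule cell marker Gabra6 at 5.20 and 7.49 against 13.97 to 14.18. All 7 Purkinje and all 9 granule cell markers measured were lower in these pools than in each of the other 4, though many stayed well above the floor, such as Calb1 at 11.18 and 11.40 and Pax6 at 10.76 and 10.71. Of the 6 molecular layer and Golgi interneuron markers 4 were lower there, 1 (Slc6a5) was higher and 1 (Grm2) neither. Of the 6 astrocyte and Bergmann glia markers 2 were lower there, 3 higher and 1 neither, and the Bergmann glia marker Gdf10 was at 5.90 and 6.49 against 11.40 to 11.62. All 8 oligodendrocyte markers and 5 of the 7 hindbrain and brainstem markers were higher, among them Hoxa2 at 10.60 and 10.38 against 4.16 to 4.56. Over the pools, the summed intensity of the granule cell list ran from 4849.1 to 84615.8 with alcohol and from 5158.2 to 86056.7 in controls. For the Purkinje list it ran from 5373.8 to 93012.3 and from 5912.8 to 94629.6, and for the oligodendrocyte list from 76817.1 to 182449.8 and from 68505.2 to 185763.0. Alcohol pool 1 stood apart in most choroid plexus markers. Their summed intensity over 4 genes was 14181.5 against 718.3 and 911.5 in the other alcohol pools and 406.7 to 481.0 in controls. Ttr made up most of that sum, at 13.67 against 6.78 to 9.04. Folr1 was at 8.35 against 4.28 to 6.86, and Sostdc1 at 9.45 against 6.96 to 8.57. Kl, at 6.88, was no higher than in control pool 2. The part of that tissue in the results below was not tested. Alcohol pool 2 and control pool 1 are called marker-poor below and the other 4 marker-rich, and results are given with and without them. In pooled tissue, fewer cells of a type and less RNA per cell cannot be told apart.

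Among the AMPA subunits, Gria1, Gria2 and Gria4 were low in the 2 marker-poor pools and Gria3 was slightly high there. Gria1, whose product GluA1 forms calcium-permeable channels where GluA2 is missing, was at 13.26, 9.15 and 13.22 in alcohol pools 1, 2 and 3 and at 10.64, 13.14 and 13.18 in control pools 1, 2 and 3. The 4 marker-rich pools lay within 0.12 of each other, the marker-poor pools were at least 2.50 below them, and the treatment groups overlapped. Its range of 4.11 over the pools was the largest of the 9 members.

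Gria2 was at 12.89, 11.46 and 13.15 in alcohol pools 1, 2 and 3 and at 12.03, 13.00 and 13.22 in control pools 1, 2 and 3. Alcohol pool 2 was lowest and control pool 1 next, with a gap of 0.85 to the other 4, whose range was 0.33. The dimmer row, made for transcript variant 1, had 12.35, 10.70 and 12.38 with alcohol and 11.16, 12.26 and 12.30 in controls, in which the same pools were low. Brighter minus dimmer row was 0.53, 0.75 and 0.77 in the alcohol pools and 0.87, 0.75 and 0.92 in the control pools. Differences in probe response between the rows were not tested, so this quantity is not a ratio of the variants.

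Gria4, which encodes the fast-gating subunit GluA4, was at 13.44, 11.44 and 13.31 in alcohol pools 1, 2 and 3 and at 11.32, 13.12 and 13.22 in control pools 1, 2 and 3. The marker-poor pools lay at least 1.68 below the others, which spanned 0.33. Within the marker-rich pools both alcohol values exceeded both control values, as they did for Gria1, while over all 6 pools the groups overlapped. For Grik1 both alcohol values lay below both control values within the marker-rich pools. The other members overlapped there. For Gria1 the nearest values were 13.22 with alcohol and 13.18 in controls. The share of all features without overlap in these pools alone was not counted, so these separations are a description only. Gria3, a partner of GluA2 in many AMPA receptors, was at 12.07, 12.38 and 12.20 with alcohol and at 12.46, 11.98 and 12.18 in controls. Here the marker-poor pools were the highest, by a gap of 0.18 that was smaller than the range of 0.22 among the other 4. Its range of 0.47 was the smallest of the 9.

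**Figure D1:**
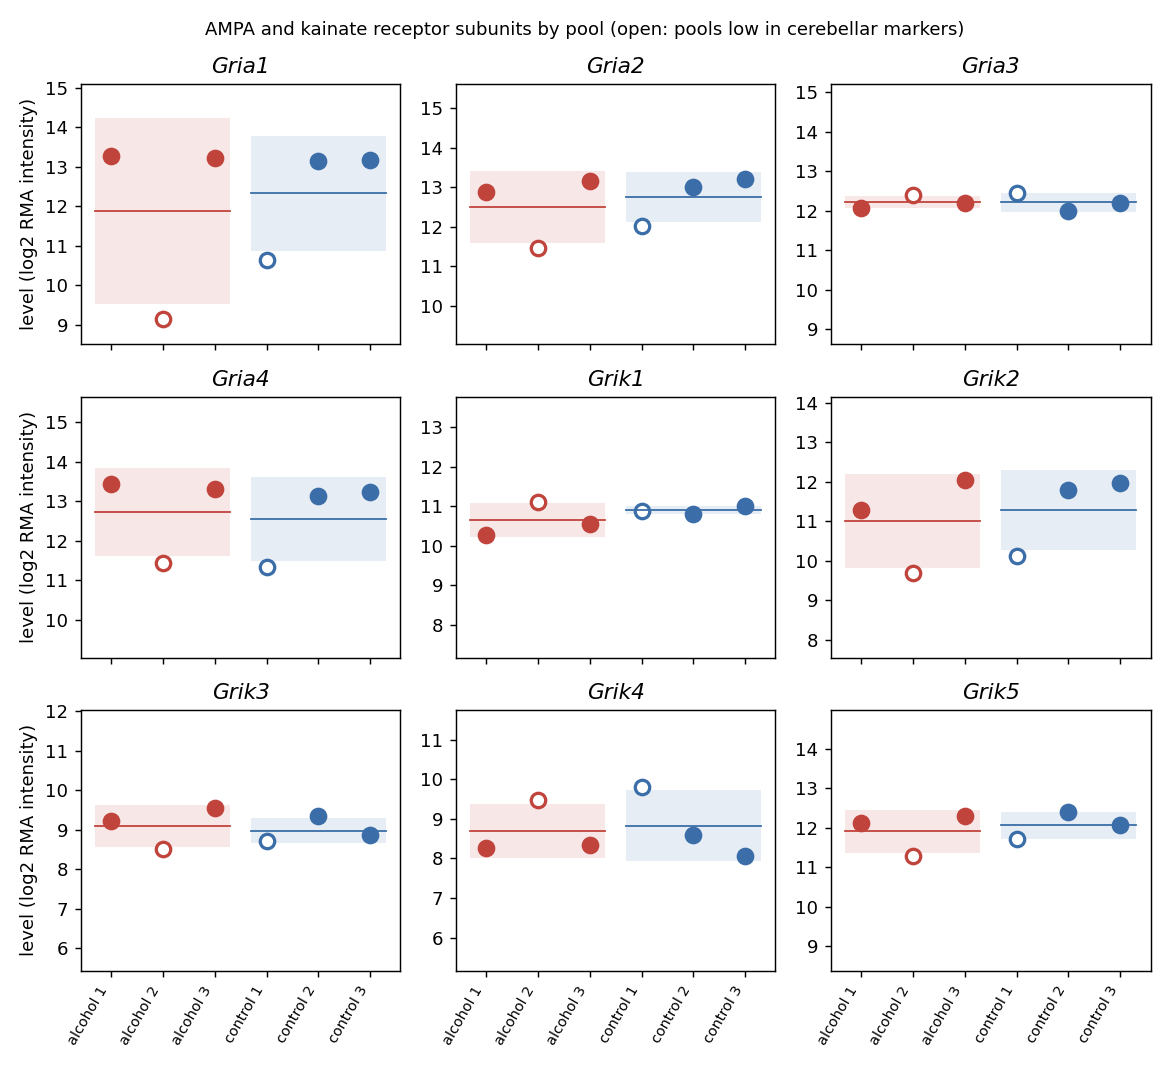
Level of each of the 9 subunit genes (log2 RMA intensity) in the 3 alcohol and 3 control pools. Each point is 1 pool, open symbols are the pools low in cerebellar markers, lines are group means and shading is 1 SD either side. Gria1, Gria4 and Grik2 show open symbols far below the filled ones in both groups, and Grik4 shows them above.

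The kainate subunits did not share 1 profile. Grik2, which encodes GluK2, the main kainate subunit of granule cells, was at 11.30, 9.69 and 12.03 in alcohol pools 1, 2 and 3 and at 10.13, 11.80 and 11.96 in control pools 1, 2 and 3. The marker-poor pools were lowest by 1.17, alcohol pool 1 was the lowest of the others, and the treatment groups overlapped. Grik5, the obligate partner subunit GluK5, was at 12.13, 11.29 and 12.30 with alcohol and at 11.71, 12.40 and 12.06 in controls. Its marker-poor pools were lowest too, but by only 0.35, close to the 0.34 spanned by the other 4.

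Grik3, which encodes the low-affinity subunit GluK3, was at 9.22, 8.51 and 9.54 in alcohol pools 1, 2 and 3 and at 8.72, 9.34 and 8.87 in control pools 1, 2 and 3. The marker-poor pools were lowest by 0.15, less than the range of 0.67 among the others. Grik4, the other obligate partner, was at 8.27, 9.48 and 8.35 with alcohol and at 9.82, 8.59 and 8.07 in controls. It was the reverse case, with the marker-poor pools highest by 0.89. Grik1, which encodes GluK1, was at 10.26, 11.12 and 10.56 with alcohol and at 10.89, 10.80 and 11.01 in controls. Of its marker-poor pools, alcohol pool 2 was the highest of all 6 and control pool 1 fell among the others, and alcohol pools 1 and 3 were the lowest.

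Set against all features, 6 of the 9 members (Gria1, Gria2, Gria4, Grik2, Grik3 and Grik5) had both marker-poor pools below the other 4, as did 25.1% of all features. Gria3 and Grik4 had both above, as did 23.4% of all features. Since the split of the pools rests on measured markers, these counts are a description with no test, and the part of tissue composition in the levels was not tested.

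**Figure D2:**
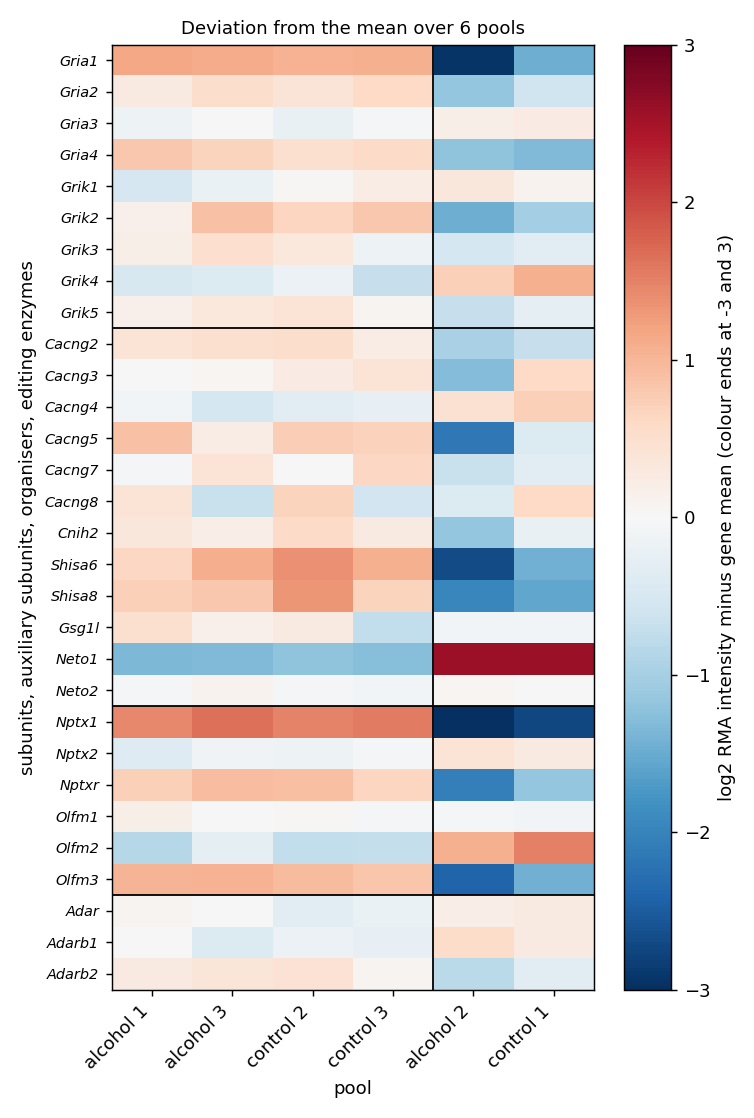
Deviation of each gene's level in a pool from its mean over the 6 pools (log2, colour scale). Rows are the subunit genes, the auxiliary subunits, the secreted organisers and the RNA editing enzymes. The columns of alcohol pool 2 and control pool 1 show the same colours as each other for most genes, with Gria1, Gria4 and Nptx1 low and Neto1 and Grik4 high.

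The comparison of alcohol with saline asks whether expression of these receptor genes differed after acute intoxication. No member passed the threshold, an adjusted p of 0.05 by limma with Benjamini-Hochberg adjustment over all 26419 features, where 0 features (0%) passed. All 9 members had an adjusted p of 1.00, and all 9 had overlapping groups, against 8.76% of all features whose groups did not overlap. The count of members at an unadjusted p under 0.05 was 0, where 1030 features (3.90%) reached it, and Grik1 had the lowest unadjusted limma p at 0.357. The mean was lower with alcohol for 6 members and higher for 3, with a median difference of -0.15. Over all features 54.1% were lower and the median was -0.02.

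Gria1 averaged 11.88 ± 2.36 over the alcohol pools and 12.32 ± 1.45 over the control pools (SD, n = 3 each), which gave a difference of -0.44 (SE 1.28) with a 95% interval of -3.55 to 2.67. The interval spans changes of several log2 units either way, so these 6 pools set little limit on a change in Gria1. Gria3 was the most closely bounded, at 12.22 ± 0.16 and 12.21 ± 0.24 (SD, n = 3 each), a difference of 0.01 with an interval of -0.47 to 0.50. Gria2 differed by -0.25 (-1.54 to 1.03) and by -0.09 on its dimmer row, and Gria4 by 0.18 (-1.58 to 1.94).

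For the kainate subunits, Grik1 averaged 10.65 ± 0.43 over the alcohol pools and 10.90 ± 0.10 over the control pools (SD, n = 3 each), which gave a difference of -0.25 (-0.87 to 0.36). The difference was -0.29 (-2.07 to 1.50) for Grik2 and 0.11 (-0.67 to 0.89) for Grik3. It was -0.13 (-1.43 to 1.18) for Grik4 and -0.15 (-0.95 to 0.65) for Grik5. Every one of these intervals includes 0 and changes in either direction. Leaving out alcohol pool 2 turned the sign of Gria1 to 0.92, of Gria2 to 0.27, of Grik2 to 0.37 and of Grik5 to 0.16, and leaving out control pool 1 turned that of Gria4 to -0.44 and of Grik4 to 0.37, whereas Grik1 was lower with alcohol in all 6 such fits. Without alcohol pool 1, the one high in most choroid plexus markers, the difference was -0.06 for Grik1, -0.18 for Gria4 and -1.13 for Gria1.

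With a term for the 2 marker-poor pools, 1 in each group, the differences stayed as they were by construction and the standard errors fell. The interval of Gria1 became -1.26 to 0.38, that of Gria4 -0.12 to 0.47 and that of Gria2 -0.67 to 0.16. Limma's adjusted p over the 9 members then ranged from 0.652 (Gria2) to 0.980 (Gria3), with 0 features (0%) past the threshold and 2502 (9.47%) at an unadjusted p under 0.05. No member was among the latter.

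In the 4 marker-rich pools alone the difference of Gria1 was 0.08 (SE 0.15), that of Gria2 -0.09 (SE 0.19) and that of Gria4 0.21 (SE 0.16). Gria1 thus turned sign when the marker-poor pools were left out. The dimmer row of Gria2 differed by 0.09 (SE 0.15) in the 4 marker-rich pools, opposite in sign to its brighter row. Of the 9 members 5 were lower with alcohol there, against 53.0% of all features, and 0 were at an unadjusted limma p under 0.05, against 8.03%. Grik1 had the largest difference in size, -0.49 (SE 0.19; 95% interval -1.0 to 0.02), with an unadjusted limma p of 0.0557 and an adjusted p of 0.633. Between the marker-poor pools, alcohol pool 2 minus control pool 1, Grik1 differed by 0.23, in the opposite direction, and that comparison has 1 pool a side and no test.

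Gria4 was the single member higher with alcohol both among the marker-rich pools, without overlap, and between the marker-poor pools, where it differed by 0.12. The same held for 10.8% of all features. No member was lower with alcohol in both, as were 14.4% of features. Between the marker-poor pools the largest difference in size was that of Gria1, at -1.49, followed by Gria2 at -0.58.

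**Figure D3:**
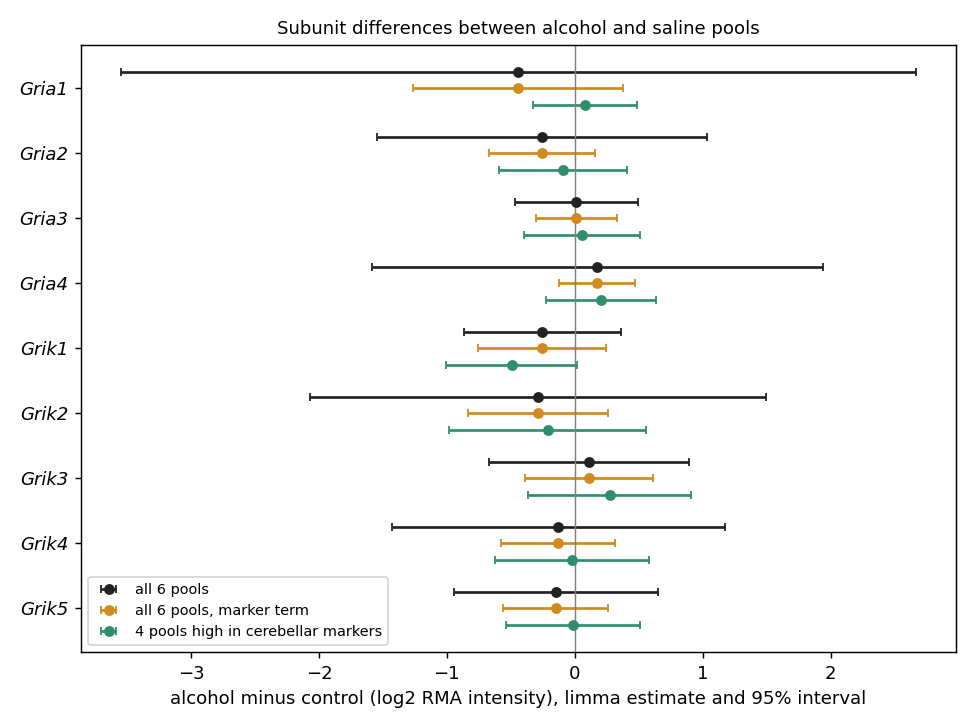
Difference of alcohol minus control (log2) for each subunit gene with its 95% interval, over all 6 pools, with the marker term, and in the 4 marker-rich pools. All intervals include 0, and that of Gria1 shrinks from -3.55 to 2.67 without the term to -1.26 to 0.38 with it.

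Subunit composition was compared through log2 ratios within each array. A ratio of probes shows unequal change between samples and not the molar ratio of the subunits. Gria4 minus Gria2 was 0.56, -0.02 and 0.16 in alcohol pools 1, 2 and 3 and -0.71, 0.12 and 0.00 in control pools 1, 2 and 3. Control pool 1 was lowest and alcohol pool 1 highest, and the groups overlapped. The mean difference was 0.43, with a two-sided exact permutation p of 0.30 and an adjusted p of 0.90 over the 4 ratios.

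Gria1 minus Gria2 was 0.38, -2.30 and 0.07 with alcohol and -1.39, 0.14 and -0.05 in controls, and Gria3 minus Gria2 was -0.81, 0.93 and -0.95 with alcohol and 0.42, -1.02 and -1.04 in controls. The marker-poor pools thus had the lowest Gria1 and the highest Gria3 relative to Gria2. Their mean differences were -0.19 and 0.27, with exact permutation p of 0.90 and 0.50. Grik5 minus Grik2 was 0.83, 1.60 and 0.27 with alcohol and 1.58, 0.60 and 0.10 in controls, highest in the marker-poor pools, and differed by 0.14 (exact permutation p = 0.70). All 4 adjusted p were 0.90, and the smallest p that 3 pools against 3 allow is 0.10.

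**Figure D4:**
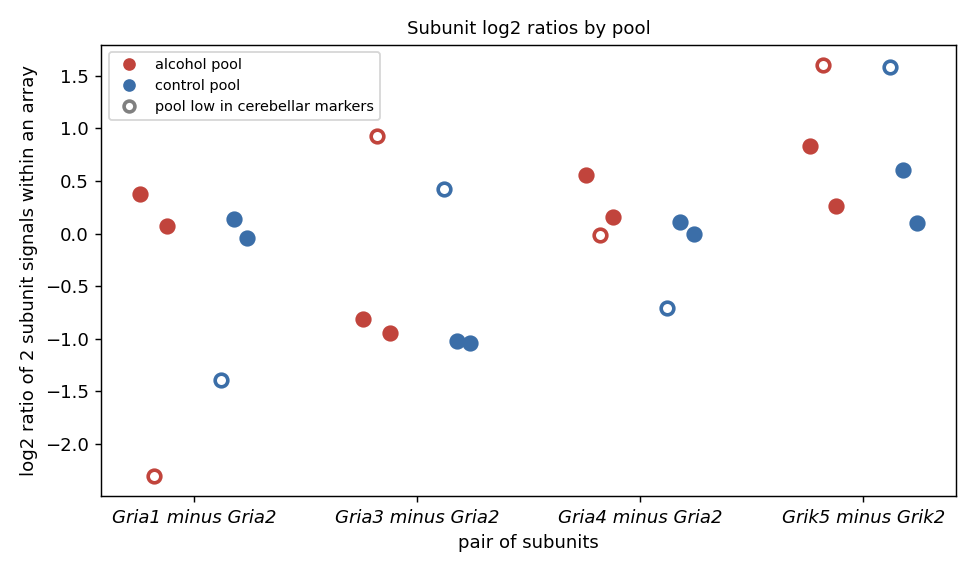
Log2 ratios of subunit signals within each array, 1 point per pool, with open symbols for the pools low in cerebellar markers. The open symbols are low for Gria1 over Gria2 and high for Gria3 over Gria2 and Grik5 over Grik2, in both groups.

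AMPA and kainate receptors work with auxiliary subunits that control their gating and surface delivery, and 12 of the 15 listed were matched (Cnih3, Shisa7 and Shisa9 were not). Of these, 2 were higher and 10 lower with alcohol, with a median difference of -0.24, where 54.1% of all features were lower, and 0 passed limma's threshold. Without alcohol pool 2 the count became 8 higher and 4 lower, with a median of 0.08, and in the marker-rich pools 3 higher and 9 lower, with a median of -0.13. Cacng3, which encodes the TARP gamma-3, was at 9.67, 8.39 and 9.74 in alcohol pools 1, 2 and 3 and at 10.29, 9.92 and 10.10 in control pools 1, 2 and 3. All alcohol pools lay below all control pools, as in 4.36% of all features, and control pool 1 was the highest although alcohol pool 2 was the lowest. The means were 9.27 ± 0.76 and 10.10 ± 0.18 (SD, n = 3 each), a difference of -0.83 (SE 0.39) with a limma unadjusted p of 0.0738 and an adjusted p of 1.00. Without alcohol pool 2 the difference was -0.40, and in the 4 marker-rich pools -0.30. Gsg1l, which slows recovery of AMPA receptors from desensitisation, differed by 0.37 (SE 0.31), the TARP gamma-8 gene Cacng8 by -0.45 (SE 0.44) and the cornichon gene Cnih2 by -0.41 (SE 0.45).

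Neto1, Neto2 and Shisa6 are described for their profiles over the pools and were picked with those values in view. Neto1, which encodes an auxiliary subunit of kainate receptors, was at 7.39, 11.30 and 7.42 with alcohol and at 11.33, 7.53 and 7.46 in controls, high in both marker-poor pools. Its relative Neto2 stayed between 11.69 and 11.88 in all 6. Shisa6, an AMPA receptor partner, was at 10.24, 6.94 and 10.71 with alcohol and at 8.17, 11.00 and 10.68 in controls, low in the marker-poor pools. With the marker term Shisa6 differed by -0.66, with an unadjusted limma p of 0.0401 and an adjusted p of 0.512, the single gene of the 36 in the 4 lists under 0.05 before adjustment in that fit, where 9.47% of all features were.

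Of the proteins that assemble, traffic or anchor the receptors, 15 of 16 were matched (Prrt1 was not), 5 higher and 10 lower with alcohol, with a median of -0.10 and 0 past the threshold. Without alcohol pool 2 it was 10 higher and 5 lower, with a median of 0.07, and in the marker-rich pools 4 higher and 11 lower, with a median of -0.07. The scaffold gene Grip2 differed by -0.44 (SE 0.28), and Abhd6, whose product limits surface delivery of AMPA receptors, by -0.21 (SE 0.17). Klhl17, a ubiquitin ligase adaptor for GluK2, differed by 0.22 (SE 0.36), and Gripap1, an endosomal trafficking gene, by -0.13 (SE 0.22). Frrs1l, needed for AMPA receptor assembly and chosen after its values were seen, was at 11.21, 8.80 and 11.15 with alcohol and at 9.27, 11.41 and 11.31 in controls. It was low in the marker-poor pools. Frrs1l was also lower with alcohol in both kinds of pool. So were Cacng3, Neto1, Abhd6 and the scaffold gene Grip1 (also chosen after its values were seen). With Frrs1l these were 5 of the 36 genes matched in the 4 lists, against 14.4% of all features. Neto1 and Grip1 were high in both marker-poor pools, and Cacng3 and Abhd6 were neither high nor low in both.

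All 6 secreted or surface organisers that cluster AMPA receptors were matched, 1 higher and 5 lower with alcohol, with a median of -0.13, and 0 passed. In the marker-rich pools the direction turned, with 5 higher and 1 lower and a median of 0.07, and without alcohol pool 2 it was 4 higher and 2 lower, with a median of 0.41. The neuronal pentraxin gene Nptx1, chosen after its values were seen, was at 13.15, 8.29 and 13.36 with alcohol and at 8.98, 13.19 and 13.27 in controls. Its low values fell in the marker-poor pools, as for Gria1. The pentraxin receptor gene Nptxr differed by -0.26 (SE 0.94), the activity-regulated pentraxin Nptx2 by -0.05 (SE 0.26), and the noelin genes Olfm1 and Olfm3 by 0.07 (SE 0.16) and -0.23 (SE 1.11). Among the RNA editing enzymes, Adarb1, which edits the Gria2 transcript at the site that sets calcium permeability, differed by 0.11 (SE 0.30). Adar differed by 0.17 (SE 0.21) and Adarb2 by -0.12 (SE 0.38), so that 2 of 3 were higher with a median of 0.11, and 0 passed. In the marker-rich pools all 3 were higher, with a median of 0.05.

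Likeness of profiles was measured as the root mean square difference between log2 levels over the 6 pools after each gene was centred on its mean, a description with no test. Among the members the most alike pair was Grik3 and Grik5 (0.15), followed by Gria3 and Grik1 (0.25) and Gria2 and Grik2 (0.30). The measure is small for any pair of genes that vary little. Gria3 and Grik1 had the smallest ranges of the members (0.47 and 0.85), so their low value does not show a shared profile. Both marker-poor pools lay above the others for Gria3 but not for Grik1. Of 13602 named genes that reached the floor on at least 3 arrays, those nearest to Gria1 were Slitrk4 (0.11), which encodes a synaptic adhesion protein, and Trhde (0.13), which encodes an enzyme that degrades thyrotropin-releasing hormone. Trhde was at 4.87 in alcohol pool 2, under the floor, so its likeness there rests on a low value. Nearest to Gria2 were Plxna3 (0.05), a semaphorin receptor gene, and Cacna2d1 (0.07), a calcium channel subunit gene. For Gria4 they were Dgkz (0.05), a diacylglycerol kinase gene, and Csnk1g1 (0.07), a casein kinase gene.

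For the kainate members, Greb1l (0.10) and Sowaha (0.13) were nearest to Grik2, and Rc3h1 (0.04), an RNA-binding ubiquitin ligase gene, and Ppip5k1 (0.08), an inositol pyrophosphate kinase gene, to Grik3. Apobec2 (0.08) and Asap1 (0.09) were nearest to Grik4, and Cdan1 (0.03) and Tecpr2 (0.04) to Grik5. All of these profiles share the same 6 arrays. Gria3 and Grik1, whose range over the pools did not exceed 1 log2 unit, were not searched.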

How the data were processed

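Total RNA of 6 pools was hybridised to single-colour NimbleGen arrays (Cy3, per the labels). The authors deposited a linear RMA intensity per sequence and array; RMA is named, without a version, in the submitters' processing notes. Neither the genome build nor whether the arrays were equalised together is given in the sources used here. A value table deposited beside the arrays listed 18107 features and held exactly those reaching an intensity of 50 on at least 3 arrays (0 exceptions, relative difference up to 9.1e-07). The entry for 5651 random-sequence probes was left out, leaving 26419 features, of which 26368 had 5 probes. The number of arrays limits the precision.

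Deposited intensity values were converted to log2 and not normalized again. Rows were named through RefSeq genes of GRCr8 by gene identifier (20681 features), accession (31), file symbol (2630) or description (3077). Alcohol and control pools were compared in R 4.3.3 by limma 3.58.1 (lmFit with treatment alone, then eBayes, two-sided p, Benjamini-Hochberg over all features). The fit was tested on simulated data. These had no marker-poor pools, and their spread came from the fit with the marker term. They therefore do not show how large a change the fit could detect in the real pools. Ratios were compared with exact permutation tests that went through all arrangements of the pools, in Python 3.11.15 with numpy 2.4.6. The packages pandas 2.3.3 and matplotlib 3.10.9 were also used. The marker term stands for pools whose median over granule and Purkinje markers lies more than 2 log2 units below the highest pool.

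The members, lists and tests were chosen with earlier results of these data known. Named were all members and up to 4 genes per list with the smallest p. The 2 genes most like a member whose range exceeds 1 log2 unit were also named. Of the marker lists, Pcp2, Gabra6, Neurod1, Gdf10, Mbp, Hoxa2 and Tph2 were set by name, with no p-value used. Neurod1, not described above, was lower in both marker-poor pools than in the other 4. Mbp and Tph2, also not described above, were higher there. Calb1, Pax6, Slc6a5, Grm2, Ttr, Folr1, Sostdc1 and Kl were picked with their values in view, as is said of other genes where they appear. The alternatives were the value table, median centring, quantile normalization, a filter on dim features, the mean of a gene's rows, array weights, eBayes with a trend and robust, the replicate number as a block, the marker term, the marker-rich pools alone and leaving out each pool; the dimmer Gria2 row was added after seeing the data. The replicate numbers did not pair the pools: deviations of same-numbered pools from their group means correlated at -0.63, -0.68 and 0.60.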

Additional observations from a re-analysis of the deposited data

How the results depend on the processing

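With 3 pools a group and 2 pools apart from the rest in cerebellar markers, only large changes could pass the threshold. Of 145 alternatives for the 9 members, 126 kept the direction, 19 reversed it and 0 passed the threshold (lowest limma adjusted p 0.399), and 0 features passed in any setting. The cause of the reversals was not tested. With array weights the difference was 0.13 for Gria1, -0.0198 for Gria3, 0.14 for Cacng8, 0.0593 for Nptxr, 0.19 for Olfm3 and 0.0574 for Adarb2. Grik1 was at -0.55 in that fit, with an unadjusted limma p of 0.0279 and the lowest adjusted p above. It was the only member under 0.05 before adjustment there, where 2893 of all 26419 features were. In the marker-rich pools alone the difference was 0.0823 for Gria1, 0.0516 for Nptxr, 0.14 for Olfm3 and 0.0530 for Adarb2. For the ratio of Gria1 to Gria2 it was 0.18 in those pools. Without 1 pool, the differences ran from -1.28 to 0.92 for Gria1, -0.62 to 0.27 for Gria2, -0.10 to 0.14 for Gria3 and -0.44 to 0.82 for Gria4. They ran from -0.49 to -0.06 for Grik1, -0.87 to 0.37 for Grik2, -0.12 to 0.40 for Grik3, -0.52 to 0.37 for Grik4 and -0.35 to 0.16 for Grik5. For list genes they ran from 0.09 to 0.60 for Gsg1l, -0.85 to -0.23 for Cacng8, -0.68 to -0.18 for Grip2, 0.05 to 0.35 for Adar,  -0.68 to 0.0568 for Cnih2, -0.04 to 0.51 for Klhl17, -0.24 to 0.0337 for Gripap1, -0.0001 to 0.12 for Olfm1, -0.91 to 0.70 for Nptxr, -1.01 to 0.91 for Olfm3, -0.27 to 0.13 for Nptx2, -0.14 to 0.34 for Adarb1 and -0.33 to 0.25 for Adarb2. For the ratios they ran from -0.68 to 0.66 (Gria1 to Gria2), -0.33 to 0.75 (Gria3 to Gria2), 0.18 to 0.59 (Gria4 to Gria2) and -0.21 to 0.55 (Grik5 to Grik2). Leaving out alcohol pool 2 reversed Gria1, Gria2, Gria3, Grik2 and Grik5, and leaving out control pool 1 reversed Gria4, Grik3 and Grik4. Gria4 and Grik4 also reversed without alcohol pool 1 or 3, Grik3 without alcohol pool 3, Gria3 and Grik5 without control pool 2, and Grik2 without control pool 3. The median difference ran from -0.47 to 0.08 for auxiliary subunits, -0.20 to 0.14 for assembly proteins, -0.43 to 0.41 for organisers and 0.00 to 0.27 for editing enzymes. The count of features at an unadjusted p under 0.05, 1030, became 504 with the value table or the filter on dim features, 2893 with array weights, 2502 with the marker term, 2121 in the marker-rich pools and 614 to 1342 without 1 pool. The replicate block left the differences as they were (-0.44 for Gria1), called 0 features and had 647 at an unadjusted p under 0.05.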
